A study of Mus musculus with 38 samples.

Results

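Transcripts of the epidermal growth factor (EGF) family were followed in mouse lung adenocarcinoma organoids. The 10 genes were taken by name: the ERBB receptors Egfr, Erbb2 and Erbb3, and the ligands Areg, Ereg, Hbegf, Tgfa, Epgn, Btc and Nrg1. They are 10 of the 55502 gene IDs listed in the count tables, and all 10 were listed in every table. ERBB receptors are tyrosine kinases of the cell surface. A ligand, made as a membrane-bound precursor and cut free by proteases, makes receptors pair and passes a signal to the ERK cascade and to PI3 kinase. Most of the ligands bind EGFR, whereas neuregulins bind ERBB3 and ERBB4. ERBB2 has no known ligand of its own and serves as partner, and ERBB3 has little kinase activity and signals through its partner. In the lung, these ligands act in epithelial repair.

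The bulk RNA sequencing comprised 38 libraries of 8 organoid lines, each started from 1 tumour and kept in Matrigel with L-WRN conditioned medium. All lines, controls included, carried p53frt and Rosa-FSF-CreERT2, a Cre recombinase that 4-hydroxytamoxifen (4-OHT) switches on, on a mixed 129/B6 background. Cultures got 2 uM 4-OHT or its ethanol vehicle for 72 hours. The double-floxed organoids (Foxa1flox and Foxa2flox) gave 5 libraries with 4-OHT and 5 with vehicle. Replicates 1 and 4 are line 1027B, replicates 2 and 5 line 1027D and replicate 3 line 1292B. The Foxa1-floxed organoids came as 6 libraries per treatment, 2 each of lines 1552A, 1552B and 1552C. The Foxa2-floxed organoids came as 4 libraries per treatment, of which replicates 1 and 2 are line 1267B and replicates 3 and 4 line 1526C. In line 1027B, a hairpin against Nkx2-1 (shNKX2-1) or a scrambled hairpin (shScramble) was combined with 4-OHT or vehicle, with 2 libraries in each of these 4 groups. No line without a floxed gene was given 4-OHT, so effects of 4-OHT or of active Cre cannot be told apart from loss of Foxa1 or Foxa2. The labels and notes used here do not give the time from treatment to RNA collection. Runs are called by the number that opens the library titles (17699, 17992, 19063 and 19659), whose meaning the labels do not give.

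Depth was similar among floxed organoids, with 18.3 to 32.0 M counts a library with both genes floxed and 18.5 to 33.2 M with 1 gene floxed. It was lower in the hairpin experiment, at 13.6 to 16.3 M. Levels are given in CPM, the count relative to the library total after scaling by TMM factors within each table, so levels set side by side across tables come from separate scalings. The targeted Foxa2, a forkhead transcription factor, averaged 4.89 ± 1.41 CPM with 4-OHT and 114 ± 47.7 CPM with vehicle in double-floxed organoids (SD, n = 5 each). Foxa1 there averaged 13.05 ± 3.40 CPM with 4-OHT and 47.7 ± 28.8 CPM with vehicle. Both falls passed the test, as did the fall of the floxed gene in each single-floxed genotype and of Foxa2 with either hairpin, whereas Foxa1 did not pass in the hairpin libraries. Nkx2-1, the hairpin's target and the lung lineage factor, averaged 191 ± 11.2 CPM in shNKX2-1 and 381 ± 35.8 CPM in shScramble libraries given 4-OHT, and 316 ± 49.4 CPM in shNKX2-1 and 432 ± 0.426 CPM in shScramble libraries given vehicle (SD, n = 2 each). Neither hairpin difference in Nkx2-1 passed (edgeR adjusted p = 0.0763 and 0.755), so directions are drawn for the libraries labelled shNKX2-1. The 6 epithelial markers summed to between 5225 and 18397 CPM in every library, against at most 4.37 CPM for 7 fibroblast markers, 8.98 CPM for 6 endothelial markers and 46.9 CPM for 7 leukocyte markers. Mitochondrial transcripts took 11.7% of counts in shNKX2-1 4-OHT replicate 2, the highest share of the series.

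The 2 libraries of line 1027B from run 17992 stood apart from the 10 others of that line. Of the 10 genes, 6 lay above all 10 other 1027B libraries in both. The hairpin libraries, 8 of these 10 others, are from run 19063 and were scaled in a separate table. The share of all genes that lie so was not computed, so whether 6 of 10 is unusual cannot be said. Areg was 231 CPM with 4-OHT and 245 CPM with vehicle in the libraries of run 17992, against 4.24 to 35.2 CPM in the other 1027B libraries. Ereg was 573 CPM with 4-OHT and 190.2 CPM with vehicle in those libraries, against 3.27 to 19.2 CPM in the others. Egfr was 15.8 CPM with 4-OHT and 8.02 CPM with vehicle there, against 0 to 1.10 CPM in the others. Hbegf, Tgfa and Nrg1 were likewise above the others. Whether these libraries carry the right line label was not tested, and each value given for line 1027B in run 17992, as well as each fit or pair by line in double-floxed organoids, rests on that label. Double-floxed changes are given with and without these libraries for every gene but Erbb2 and Btc, whose changes were 0.44 and -0.29 on the log2 scale without them, against 0.44 and -0.40 with them.

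With vehicle, the organoids held more transcript of Areg, Hbegf, Ereg, Tgfa, Btc, Erbb3 and Erbb2 than of Egfr, Nrg1 and Epgn, by their medians. Per kilobase of exon, the medians over the 15 vehicle libraries without a hairpin put Areg (amphiregulin) first at 137 CPM per kb. Erbb3 followed at 49.8 CPM per kb, then Hbegf (heparin-binding EGF-like growth factor) at 30.0 CPM per kb, Ereg (epiregulin) at 25.6 CPM per kb and Erbb2 at 23.8 CPM per kb. Tgfa (transforming growth factor alpha) had a median of 15.8 CPM per kb and Btc (betacellulin) one of 7.78 CPM per kb. Egfr, at 1.26 CPM per kb, Nrg1 (neuregulin 1), at 0.331 CPM per kb, and Epgn (epigen), at 0.139 CPM per kb, were the lowest. The place of Nrg1 depended on the genotype, since it was above Egfr per kilobase in 4 of 5 double-floxed vehicle libraries and in 0 of 10 single-floxed ones. Every neighbouring pair of ranges overlapped across libraries. Within libraries, Areg was above Erbb3, Tgfa above Btc and Btc above Egfr in 14 of 15 each. Nrg1 was above Epgn in 13, Erbb2 above Tgfa in 12, and Erbb3 above Hbegf and Egfr above Nrg1 in 11 each. The neighbours Hbegf and Ereg were in the stated order in 9 of 15 libraries, and Ereg and Erbb2 in 8 of 15.

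How much each gene varied between the 15 vehicle libraries without a hairpin differed widely. These ranges hold differences between runs of a line as well as between lines. In line 1027B with vehicle, Areg was 35.2 CPM in run 17699 and 245 CPM in run 17992. The highest vehicle library had 2.27 times the level of the lowest for Erbb3 and 3.59 times for Erbb2. It had 6.35 times for Tgfa, 6.36 times for Btc, 14.5 times for Hbegf, 17.4 times for Areg and 32.8 times for Ereg. Nrg1 spanned 83.6 times and Egfr 1067 times, from a single count in line 1027B (run 17699) to 56.3 CPM in line 1267B. Of the 9 genes with counts in all 15 libraries, Erbb3 and Erbb2 were thus the steadiest, and Egfr and Nrg1 the least steady.

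**Figure D1:**
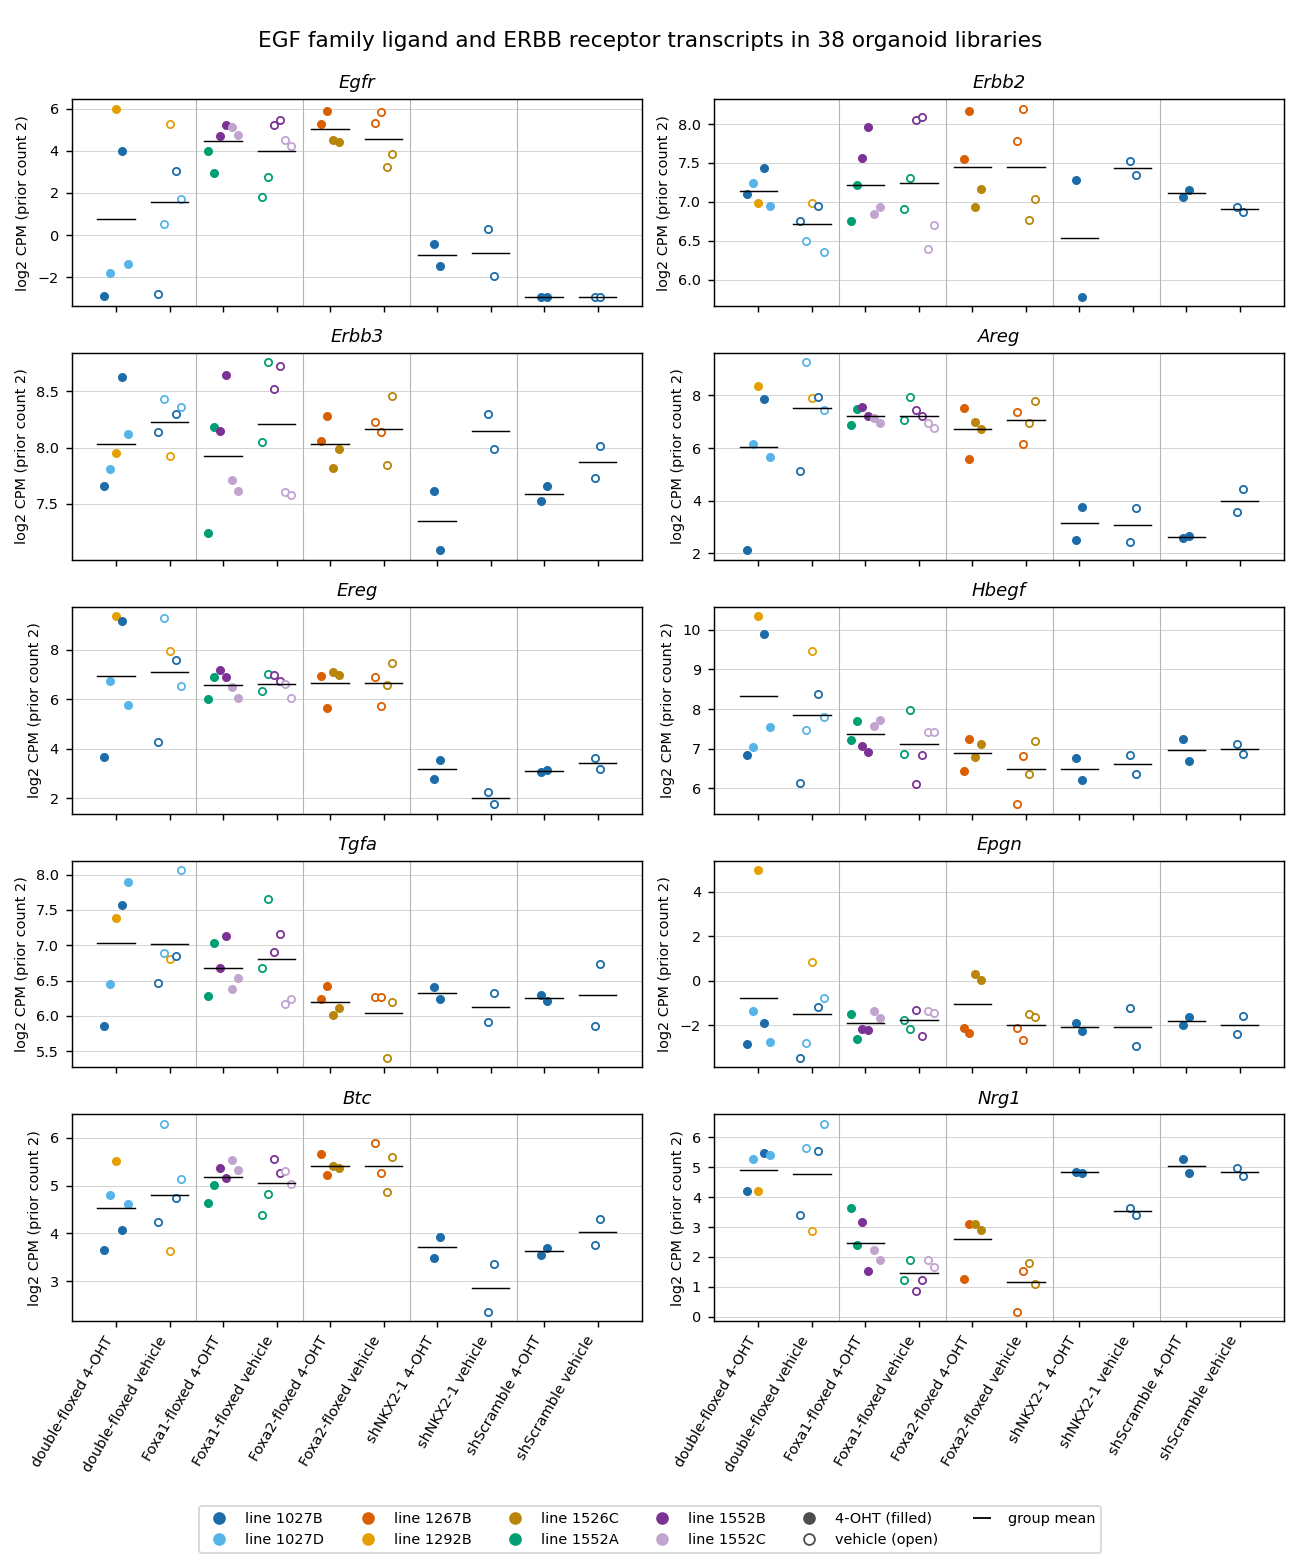
The panels plot log2 CPM (prior count 2, vertical axis) of the 10 genes in the 38 libraries, with 4-OHT groups (filled points) left of their vehicle groups (open points), colours for lines and a bar for each group's mean. Erbb2 and Erbb3 stay in a narrow band, Areg and Ereg are low in all 8 hairpin libraries, and Egfr is near its floor in most 1027B libraries.

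With an adjusted p under 0.05 as the threshold (edgeR quasi-likelihood F test, Benjamini-Hochberg over all genes tested), 1 of the 10 genes was called in 1 of the 5 comparisons of 4-OHT with vehicle. That was Nrg1, higher with 4-OHT in shNKX2-1 organoids, where 8 of the 10 genes were tested and 6.35% of all 14465 genes tested were called (2.72% as higher). None was called in double-floxed organoids, where all 10 were tested and 3.9% of 15198 genes were called. None of the 9 tested was called in Foxa1-floxed organoids, where 0.0118% of 16887 genes were called, nor in Foxa2-floxed organoids, where 3.43% were called. None of the 8 tested was called with shScramble, where 4.33% of 14465 genes were called. Counts of 0 or 1 among 8 to 10 genes are close to these shares.

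An unadjusted p under 0.05 was met by 1 of 10 members in double-floxed organoids, where 20.3% of all genes met it, by 1 of 9 in Foxa1-floxed organoids (11.4% of all genes) and by 1 of 9 in Foxa2-floxed organoids (14.2%). It was met by 1 of 8 with shScramble (15.2%) and by 3 of 8 with shNKX2-1 (24.7%). DESeq2 in place of edgeR called Nrg1 in Foxa2-floxed organoids, Nrg1 and Ereg with shNKX2-1, and none of the 10 in the other 3. The median fitted log2 change of the tested members was 0.06 in double-floxed, -0.02 in Foxa1-floxed and 0.01 in Foxa2-floxed organoids, against 0.02, 0.01 and -0.01 over all genes tested. It was -0.17 with shScramble and 0.16 with shNKX2-1, against 0.02 over all genes in both.

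**Figure D2:**
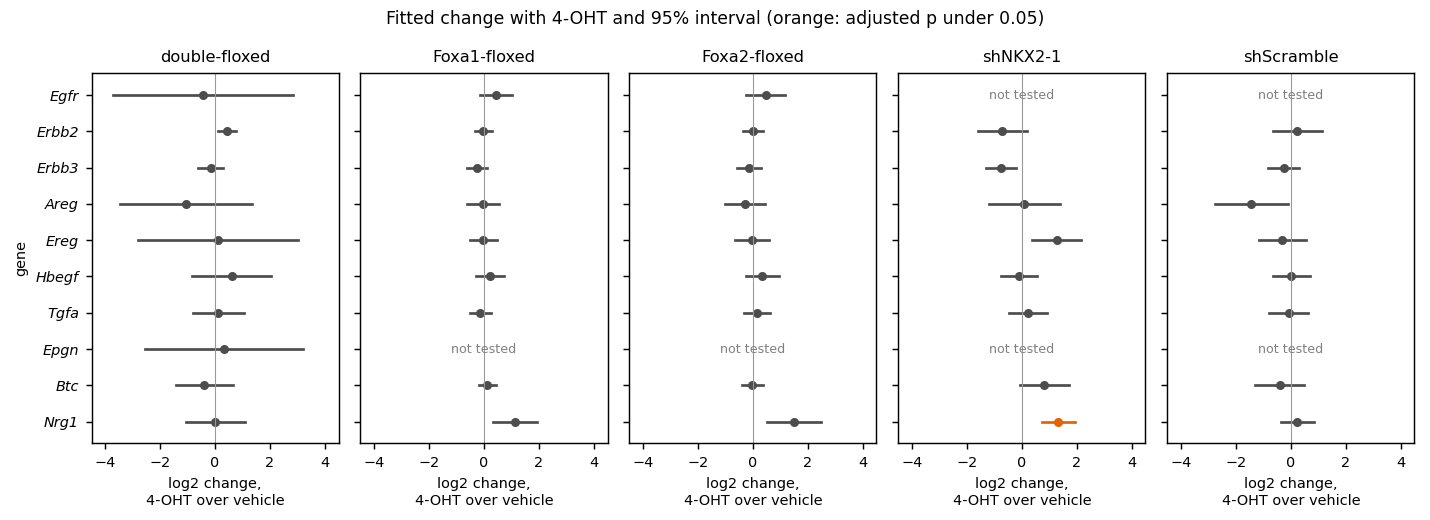
Fitted log2 change (4-OHT over vehicle, horizontal axis) of each gene with its 95% interval, in a panel for each genotype or hairpin, with orange for an adjusted p under 0.05 and grey for the rest. The intervals of Egfr, Areg, Ereg and Epgn are widest in double-floxed organoids, and Nrg1 with shNKX2-1 is the only orange point.

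Among the receptors, Erbb2 came nearest to a call in double-floxed organoids. It was 137, 151, 127, 173 and 123 CPM in the 5 libraries with 4-OHT, against 108, 90.6, 127, 124 and 81.8 CPM in the vehicle libraries of the same lines and runs. It was higher with 4-OHT in 5 of 5 pairs, by as little as 0.01 on the log2 scale in line 1292B, and the groups overlapped. The fitted change was 1.35-fold (log2 0.44, SE 0.15, edgeR adjusted p = 0.136). In bulk RNA, a change in the share of a cell type and a change in RNA per cell cannot be told apart. Foxa1-floxed and Foxa2-floxed organoids had fitted Erbb2 changes of -0.03 and 0.01 on the log2 scale (SE 0.14 and 0.18). The double-floxed change exceeded the Foxa1-floxed one by 0.34 (95% interval -0.19 to 0.88) and the Foxa2-floxed one by 0.31 (-0.25 to 0.88), and neither difference passed.

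Erbb3, the neuregulin receptor, had a fitted change below 0 in all 5 comparisons and passed in none. The double-floxed libraries had 202, 225, 248, 395 and 279 CPM with 4-OHT, against 281, 346, 242, 314 and 328 CPM with vehicle (log2 -0.16, edgeR adjusted p = 0.718), and the change was -0.31 without both run 17992 libraries of line 1027B (adjusted p = 0.316). The estimate nearest to a call was with shNKX2-1, where Erbb3 was 195 and 136 CPM with 4-OHT, against 315 and 254 CPM with vehicle (log2 -0.76, SE 0.25, edgeR adjusted p = 0.113). The lower of those 4-OHT libraries is the one with the high mitochondrial share. Erbb2 in the same library was 55.0 CPM, against 156 CPM in the other 4-OHT library and 185 and 162 CPM with vehicle, and the part of the mitochondrial share in this was not tested.

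Egfr, the receptor of most of these ligands, differed widely between lines and, in line 1027B, between runs. In double-floxed organoids it was 0.0476, 0.197, 63.7, 15.8 and 0.294 CPM with 4-OHT, against 0.0528, 1.37, 38.7, 8.02 and 3.21 CPM with vehicle. The 2 values above 10 CPM with 4-OHT belong to line 1292B and to line 1027B in run 17992, and both are above their own vehicle library. Line 1027D went the other way in both runs, at 0.144 and 0.0918 times its vehicle level. The fitted change was therefore wide (log2 -0.43, 95% interval -3.72 to 2.86, edgeR adjusted p = 0.92). Without both run 17992 libraries of line 1027B it was -1.55 (adjusted p = 0.37).

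In single-floxed organoids Egfr was present in every library. In Foxa2-floxed organoids it was 38.2, 59.5, 23.0 and 21.2 CPM with 4-OHT, against 39.5, 56.3, 9.26 and 14.3 CPM with vehicle, and line 1526C was at 1.88 times its vehicle level. In Foxa1-floxed organoids it ran from 7.58 to 36.9 CPM (median 26.0) with 4-OHT, against 3.41 to 44.5 CPM (median 20.7) with vehicle. The fitted changes, 0.46 (95% interval -0.24 to 1.16) and 0.45 (-0.13 to 1.03) on the log2 scale, were alike in size and did not pass. In the hairpin libraries Egfr fell under the filter on low counts. It had 9 and 3 counts in the shNKX2-1 4-OHT libraries and 15 and 2 counts in the shNKX2-1 vehicle libraries, against 0 counts in all 4 shScramble libraries. A library at 0 counts allows up to 3 counts, so replicate 2 of both shNKX2-1 groups was at or under that limit. All of these libraries, at 1.10 CPM or less, were below the lowest single-floxed library (3.41 CPM).

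The EGFR ligands Epgn, Ereg, Areg and Btc lie next to each other on mouse chromosome 5. In the GENCODE annotation of GRCm38, Epgn spans 91027464 to 91035215, Ereg 91074622 to 91093646 and Areg 91139599 to 91148432, all on the plus strand. Btc spans 91357261 to 91402994 on the minus strand. These are the only 4 protein-coding genes in a span of 375.5 kb, and Areg starts 46.0 kb beyond the end of Ereg. RefSeq promoters (build GRCm38.p6, 250 bases before to 50 after the start) were given for 6 of the 10 genes. Those of 3 cluster genes are printed because the cluster genes differ most in level, and that of Egfr because it was nearly silent in some lines. They are chr5:91139349-91139648 (+) for Areg, chr5:91027267-91027566 (+) for Epgn, chr5:91402945-91403244 (-) for Btc and chr11:16751953-16752252 (+) for Egfr, each written 5′ to 3′, with motif matches in capitals.
Areg: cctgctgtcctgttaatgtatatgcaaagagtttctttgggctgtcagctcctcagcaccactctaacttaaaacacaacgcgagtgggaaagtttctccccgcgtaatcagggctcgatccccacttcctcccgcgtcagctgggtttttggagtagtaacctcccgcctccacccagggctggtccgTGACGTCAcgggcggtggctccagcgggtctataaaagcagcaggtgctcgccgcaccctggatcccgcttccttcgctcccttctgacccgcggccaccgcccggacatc
Epgn: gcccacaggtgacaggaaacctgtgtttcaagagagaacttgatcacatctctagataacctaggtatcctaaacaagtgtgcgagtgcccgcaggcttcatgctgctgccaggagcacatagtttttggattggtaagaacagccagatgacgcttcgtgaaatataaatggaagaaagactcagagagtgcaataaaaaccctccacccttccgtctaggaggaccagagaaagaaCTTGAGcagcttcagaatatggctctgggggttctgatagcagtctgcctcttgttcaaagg
Btc: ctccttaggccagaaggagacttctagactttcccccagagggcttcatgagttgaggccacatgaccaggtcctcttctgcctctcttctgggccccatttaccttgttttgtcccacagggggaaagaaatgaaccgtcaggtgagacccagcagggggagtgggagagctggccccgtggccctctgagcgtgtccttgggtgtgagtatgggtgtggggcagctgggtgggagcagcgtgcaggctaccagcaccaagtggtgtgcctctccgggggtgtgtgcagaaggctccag
Egfr: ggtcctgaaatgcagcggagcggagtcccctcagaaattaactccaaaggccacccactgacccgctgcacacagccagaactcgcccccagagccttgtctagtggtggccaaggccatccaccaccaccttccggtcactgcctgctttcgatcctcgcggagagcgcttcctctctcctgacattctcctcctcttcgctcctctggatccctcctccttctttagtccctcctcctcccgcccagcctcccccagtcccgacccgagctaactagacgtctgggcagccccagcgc
Searched on both strands were the forkhead motif TGTTTAC, the AP-1 motif TGANTCA, the NKX2-1 motif CTCAAG and the cyclic AMP response element core TGACGT, the last of these chosen after the sequences were read. The Areg window holds TGACGT on both strands, in an overlapping pair that begins 61 and 59 bases before the start, the Epgn window holds 1 NKX2-1 match, 12 bases before it, and the Tgfa window (not printed) holds 1, 227 bases before it. None of the 6 windows holds the forkhead or AP-1 letters. Among 32851 RefSeq promoters of this length, 3.65% hold the forkhead letters, 7.808% the AP-1 letters, 15.902% the NKX2-1 letters and 7.513% the TGACGT letters. The Areg window has 21 CpG dinucleotides, those of Epgn and Btc 5 each.

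Areg and Ereg, ligands of EGFR, were correlated from library to library but had no single direction with 4-OHT. In double-floxed organoids Areg was 4.24, 72.0, 326, 231 and 50.5 CPM with 4-OHT, against 35.2, 611, 242, 245 and 174 CPM with vehicle. It was lower with 4-OHT in 4 of 5 pairs, by most in line 1027B of run 17699 (0.12 times vehicle) and in line 1027D (0.118 and 0.29 times), and higher in line 1292B. Ereg was 12.7, 106, 655, 573 and 54.7 CPM with 4-OHT, against 19.2, 628, 244, 190.2 and 91.8 CPM with vehicle. It was lower in 3 of 5 pairs and higher in the other two, line 1292B (2.68-fold) and line 1027B of run 17992 (3.01-fold). The groups overlapped for both genes. The fitted log2 changes were -1.06 for Areg (95% interval -3.47 to 1.34, edgeR adjusted p = 0.65) and 0.11 for Ereg (-2.82 to 3.03, adjusted p = 0.98). Without both run 17992 libraries of line 1027B they were -2.07 (adjusted p = 0.159) and -0.92 (adjusted p = 0.62).

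Single-floxed organoids were steadier. Areg ran from 116 to 189 CPM (median 146) with 4-OHT, against 107 to 249 CPM (median 139.8) with vehicle, in Foxa1-floxed organoids. Ereg there ran from 65.1 to 146 CPM (median 104) with 4-OHT, against 66.4 to 129.9 CPM (median 101) with vehicle. Both fitted changes were -0.02 on the log2 scale, with 95% intervals of -0.61 to 0.56 for Areg and -0.53 to 0.48 for Ereg. In Foxa2-floxed organoids Areg was 186, 48.3, 126 and 106 CPM with 4-OHT, against 167, 71.6, 122 and 219.8 CPM with vehicle. Ereg was 123, 50.6, 138 and 128 CPM with 4-OHT, against 121, 53.5, 94.8 and 179 CPM with vehicle. Neither fitted change passed (log2 -0.30 and -0.03).

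In the hairpin libraries both genes were lower than in any single-floxed library. Areg was 5.60 and 13.6 CPM with 4-OHT and 5.20 and 13.3 CPM with vehicle in shNKX2-1 organoids. In shScramble organoids it was 5.83 and 6.25 CPM with 4-OHT, against 11.9 and 21.4 CPM with vehicle, 2 groups that did not overlap (log2 -1.44, SE 0.57, edgeR adjusted p = 0.282). Ereg with shNKX2-1 was 6.83 and 11.7 CPM with 4-OHT, against 4.62 and 3.27 CPM with vehicle (log2 1.27, SE 0.39, adjusted p = 0.0978). Ereg with shScramble was 8.14 and 8.76 CPM with 4-OHT, against 12.2 and 9.07 CPM with vehicle. The vehicle libraries of shNKX2-1 were thus the lowest in Ereg of all 38.

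The pairing of the 2 ligands was close across the series. Over the 38 libraries, with log2 CPM centred on the mean of each table, Areg and Ereg had a Pearson r of 0.85, and Ereg ranked first in likeness to Areg among the 13435 genes compared. Within tables r was 0.91 in double-floxed, 0.81 in single-floxed and 0.23 in hairpin libraries. Libraries of a line are not independent and share a culture history, so no p is given. The ratio of Areg to Ereg CPM had a median of 1.28 and ran from 0.333 to 4.06. In double-floxed organoids it was 0.333, 0.680, 0.497, 0.403 and 0.923 with 4-OHT, against 1.84, 0.973, 0.989, 1.29 and 1.89 with vehicle. It was lower with 4-OHT in 5 of 5 pairs of line and run there, with no overlap of the groups, and in 11 of 13 over all genotypes and hairpins. This pattern was chosen after its values were seen and was not tested. The genes next most like Areg were Tspan15 (0.84) and Pgm2 (0.78), and those next most like Ereg were Egr2 (0.74) and Tnfrsf10b (0.72).

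**Figure D3:**
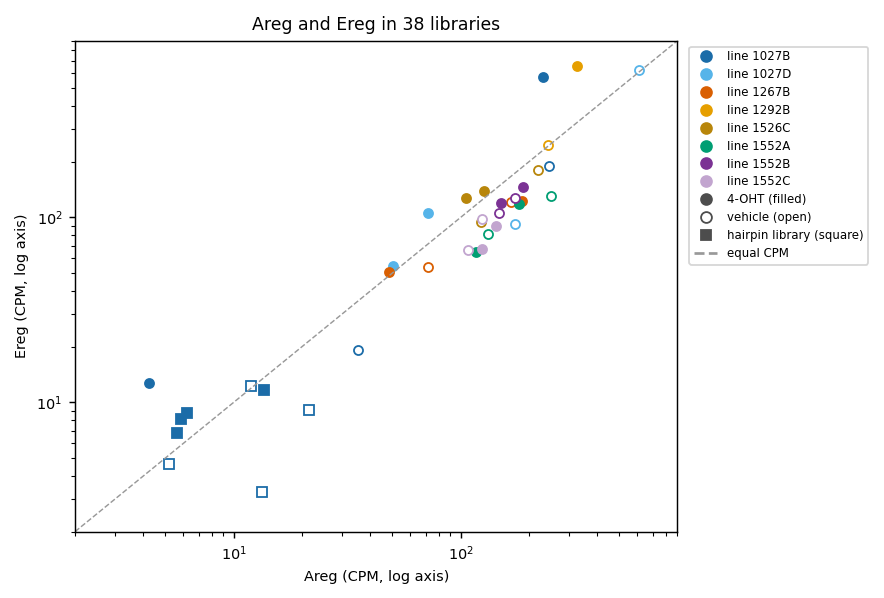
Areg (horizontal, CPM, log axis) against Ereg (vertical, CPM, log axis) in the 38 libraries, with filled points for 4-OHT, open points for vehicle, squares for hairpin libraries and a dashed line of equal CPM. Libraries fall along the line, and all hairpin libraries sit in the low corner with line 1027B of run 17699 close by.

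Of the other members of the cluster, Btc went the way of Areg in all 5 double-floxed pairs of line and run, whereas Epgn did not. Btc, a ligand of EGFR and ERBB4, was 12.4, 27.7, 45.5, 16.6 and 24.3 CPM with 4-OHT, against 18.7, 78.2, 12.3, 26.7 and 35.1 CPM with vehicle, in double-floxed organoids. It was higher with 4-OHT in line 1292B alone, whereas Ereg was also higher in line 1027B of run 17992. The Pearson r of Btc with Areg was 0.60 in double-floxed, 0.15 in single-floxed and 0.67 in hairpin libraries. With Ereg it was 0.52, 0.39 and 0.66. In double-floxed libraries, r of this size was not particular to the cluster. In the same order of libraries, Areg had r of 0.62, 0.34 and -0.04 with Erbb3 and of 0.61, -0.02 and -0.32 with Hbegf. For Ereg with Hbegf, r was 0.78, -0.20 and 0.24. In the single-floxed genotypes Btc had the smallest SE of the ligands, with fitted changes of 0.11 (95% interval -0.20 to 0.42) with Foxa1 floxed and -0.03 (-0.40 to 0.35) with Foxa2 floxed. Epgn was under 2 CPM in 37 of 38 libraries. The exception was line 1292B with 4-OHT, at 31.5 CPM, against 1.70 CPM in its vehicle library. The fitted double-floxed change was 0.33 on the log2 scale (edgeR adjusted p = 0.932), and 1.37 without both run 17992 libraries of line 1027B (adjusted p = 0.649). Line 1526C had 1.16 and 0.957 CPM with 4-OHT, against 0.286 and 0.252 CPM with vehicle. Epgn was called when Foxa2-floxed organoids were tested without line 1267B, a test that rested on line 1526C alone. Epgn passed the filter on low counts there through the 4-OHT libraries, so the call adds no support. With all lines Epgn was under the filter on low counts in single-floxed and hairpin libraries.

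Hbegf, whose precursor is also the receptor of diphtheria toxin in humans, was the ligand with the highest single value. In double-floxed organoids it was 115, 131, 1299.9, 951 and 186 CPM with 4-OHT, against 70.6, 178, 702, 330.2 and 224 CPM with vehicle. It was higher in 3 of 5 pairs and lower in both pairs of line 1027D (log2 0.60, 95% interval -0.84 to 2.04, edgeR adjusted p = 0.672). Without both run 17992 libraries of line 1027B the change was 0.24 (adjusted p = 0.701). In Foxa1-floxed organoids it ran from 121 to 212 CPM (median 170.2) with 4-OHT, against 68.9 to 251 CPM (median 144) with vehicle. In Foxa2-floxed organoids it was 87.1, 152, 109.7 and 139 CPM with 4-OHT, against 48.3, 113, 82.3 and 145 CPM with vehicle. On the log2 scale Hbegf was higher with 4-OHT in all 6 pairs of line and run of the single-floxed genotypes. In line 1552A this was by 0.03 alone, and mean CPM there was lower with 4-OHT, at 0.967 times vehicle. The fitted log2 changes of 0.22 (SE 0.24) and 0.35 (SE 0.29) did not pass. Egr1, an immediate early gene of ERK signalling, was highest in the same double-floxed libraries as Hbegf. It was 23.3, 12.5, 2469, 4138 and 87.1 CPM with 4-OHT, against 66.2, 276, 2269, 2169 and 201 CPM with vehicle. The part of Egr1 in the Hbegf values was not tested. Egr1 is from the list of 16 ERK response genes, none of which was called in double-floxed organoids. Levels of the others in these libraries are not given. The genes most like Hbegf over the 38 libraries were Rnf39 (r = 0.83), Srf (0.82) and Trib1 (0.81).

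Tgfa, an EGFR ligand made by many epithelia, had fitted log2 changes between -0.14 and 0.22 in the 5 comparisons, and none passed. It was 58.1, 87.1, 168, 190.1 and 238 CPM with 4-OHT, against 88.2, 119, 112, 115 and 268 CPM with vehicle, in double-floxed organoids (log2 0.12, 95% interval -0.80 to 1.04). Without both run 17992 libraries of line 1027B the change was -0.12 (edgeR adjusted p = 0.902). In Foxa1-floxed organoids it ran from 77.5 to 140.1 CPM (median 97.6) with 4-OHT, against 71.5 to 202 CPM (median 111) with vehicle. In Foxa2-floxed organoids it was 75.1, 85.8, 64.7 and 69.3 CPM with 4-OHT, against 77.0, 77.0, 42.2 and 73.2 CPM with vehicle. The 95% intervals of the single-floxed changes, -0.52 to 0.25 with Foxa1 floxed and -0.34 to 0.61 with Foxa2 floxed on the log2 scale, leave out a change of 2-fold either way. They come from repeat libraries of 3 and 2 lines, so they cover the spread between these libraries and not that between tumours. The values with the hairpins also overlapped, from 73.7 to 85.1 CPM in the 4 libraries with 4-OHT and from 58.0 to 106 CPM in the 4 with vehicle.

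Nrg1, the ERBB3 and ERBB4 ligand, was the gene whose change with 4-OHT was most often in one direction, higher in 10 of 13 pairs of line and run. With shNKX2-1 it was 28.7 and 27.8 CPM with 4-OHT, against 12.5 and 10.4 CPM with vehicle. The groups did not overlap, and the fitted rise was 2.51-fold (log2 1.33, SE 0.27, edgeR adjusted p = 0.0258). With shScramble it was 38.2 and 27.8 CPM with 4-OHT, against 31.4 and 25.8 CPM with vehicle, groups that overlapped (log2 0.23, SE 0.26). The fold change with shNKX2-1 was 2.14 times that with shScramble, a difference that did not pass (log2 1.10, SE 0.37, edgeR adjusted p = 0.818). No gene of the 14465 was called for that difference (0%), although 5.41% had an unadjusted p under 0.05, as had Nrg1 and Ereg of the 8 tested members. DESeq2 called none of the 8 for it. Leaving out either vehicle library ended the shNKX2-1 call, and leaving out the 4-OHT library with the high mitochondrial share kept it (adjusted p = 0.0252).

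Among the hairpin libraries Nrg1 was lowest in shNKX2-1 organoids without 4-OHT. These organoids had the 12.5 and 10.4 CPM just given, against 31.4 and 25.8 CPM with shScramble, and these groups did not overlap (log2 -1.31, SE 0.27, edgeR adjusted p = 0.122). With 4-OHT, shNKX2-1 and shScramble libraries overlapped (log2 -0.21, SE 0.26). For the vehicle comparison 0.235% of genes were called, and for the 4-OHT comparison 1.58%, with none of the 8 tested members in either by edgeR. At an unadjusted p under 0.05 there were 3 of the 8 in the vehicle comparison, Ereg, Btc and Nrg1, all with estimates below 0, against 7.76% of all genes. There were 0 of the 8 in the 4-OHT comparison, against 13.9% of all genes. DESeq2 called Ereg and Nrg1 in the vehicle comparison and none in the 4-OHT comparison. The 5 lung lineage markers (Nkx2-1, Sftpc, Sftpb, Napsa and Lyz2) summed to 296 and 419 CPM in the shNKX2-1 libraries with 4-OHT, with Lyz2 at 0, against 3034 and 5788 CPM in those with vehicle. With shScramble the sums were 2685 and 2798 CPM with 4-OHT, against 8241 and 8595 CPM with vehicle. Their part in the Nrg1 values was not tested.

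In single-floxed organoids Nrg1 was low and higher with 4-OHT in all 6 pairs of line and run. With Foxa2 floxed it was 2.32, 8.47, 8.45 and 7.43 CPM with 4-OHT, against 1.05, 2.81, 3.43 and 2.05 CPM with vehicle. The lowest 4-OHT value and the lowest vehicle value are the same line and run (1267B, run 17699), and it is this pair alone that makes the groups overlap. The fitted change was 2.84-fold (log2 1.51, SE 0.46, edgeR adjusted p = 0.0924). With line and run together as the block, in place of line, the change was 1.47 and passed (adjusted p = 0.0358). With Foxa1 floxed it ran from 2.82 to 12.4 CPM (median 4.91) with 4-OHT, against 1.74 to 3.66 CPM (median 2.69) with vehicle. The fitted change of 2.20-fold did not pass (log2 1.14, SE 0.38, adjusted p = 0.283).

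Double-floxed organoids did not share that direction. Nrg1 was 18.4, 39.0, 18.5, 44.4 and 42.9 CPM with 4-OHT, against 10.6, 50.5, 7.22, 46.2 and 87.5 CPM with vehicle. It was higher in the 2 pairs with the lowest vehicle values and lower in the other 3, so that the 4-OHT libraries spanned a narrower range than the vehicle libraries. The fitted change was 0.01 on the log2 scale (95% interval -1.07 to 1.08, edgeR adjusted p = 0.998), and 0.16 without both run 17992 libraries of line 1027B (adjusted p = 0.88). It was lower than the Foxa2-floxed change by 1.43 (95% interval -2.93 to 0.07, adjusted p = 0.727) and lower than the Foxa1-floxed change by 1.00 (-2.37 to 0.36, adjusted p = 0.434). Neither difference passed. The level itself set the lines apart, since all 5 double-floxed vehicle libraries (7.22 to 87.5 CPM) were above all 10 single-floxed ones (1.05 to 3.66 CPM). Line 1267B, whose titles open with the same numbers as those of the double-floxed lines (17699 and 17992), had 1.05 and 2.81 CPM. Genotype, table and line cannot be told apart in this comparison of levels. The genes most like Nrg1 over the 38 libraries were 1110002E22Rik (r = 0.73), Rnd1 (0.71) and Pcyt1b (0.70).

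**Figure D4:**
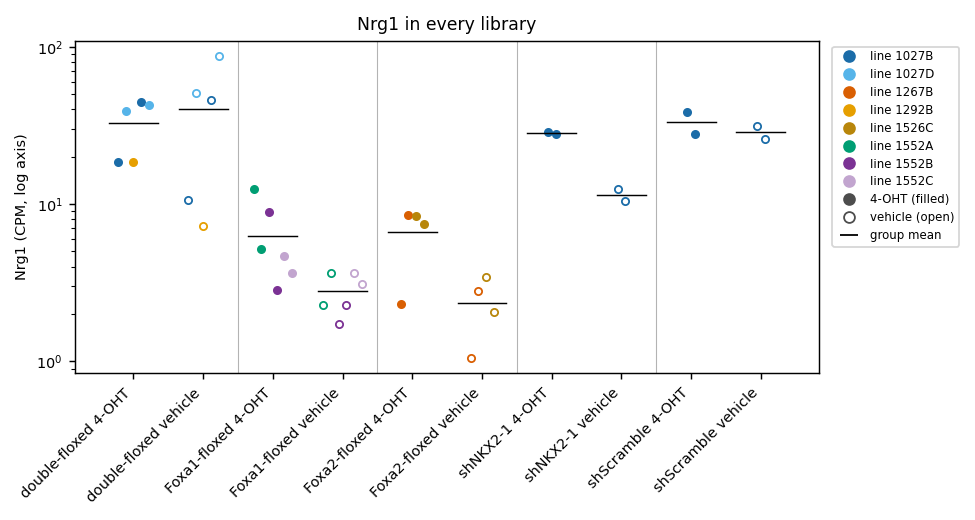
Nrg1 level (CPM, log axis) in each library by group (horizontal axis), with 4-OHT left of vehicle, colours for lines and a bar for the group mean. Single-floxed vehicle libraries lie between 1.05 and 3.66 CPM, and the shNKX2-1 vehicle libraries at 12.5 and 10.4 CPM lie below the other 6 hairpin libraries.

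The differences between genotypes were tested for all 10 genes on counts summed per line. None passed for double-floxed minus Foxa1-floxed organoids, where 1.34% of 18501 genes were called. None passed for double-floxed minus Foxa2-floxed (0% of 18096) or Foxa1-floxed minus Foxa2-floxed organoids (0% of 18384). At an unadjusted p under 0.05 there were 0 members in the first, where 16.8% of all genes met it, 0 in the second (6.98%) and 1 in the third (5.83%), Epgn. DESeq2 called none of the 10 in any. Without line 1027D, Ereg passed for double-floxed minus Foxa1-floxed organoids (log2 1.38, edgeR adjusted p = 0.0253), against 0.30 with all lines. With line 1027D kept and both run 17992 libraries of line 1027B left out, this Ereg difference was -0.45 (edgeR adjusted p = 0.88). Its sign thus depended on which libraries were used. Line 1027D is the one whose Ereg, Areg and Egfr were lower with 4-OHT in both runs, as were its Erbb3, Hbegf, Tgfa, Btc and Nrg1. Its Erbb2 was higher in both runs and its Epgn went both ways, and the plot of change by line and run shows this split.

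**Figure D5:**
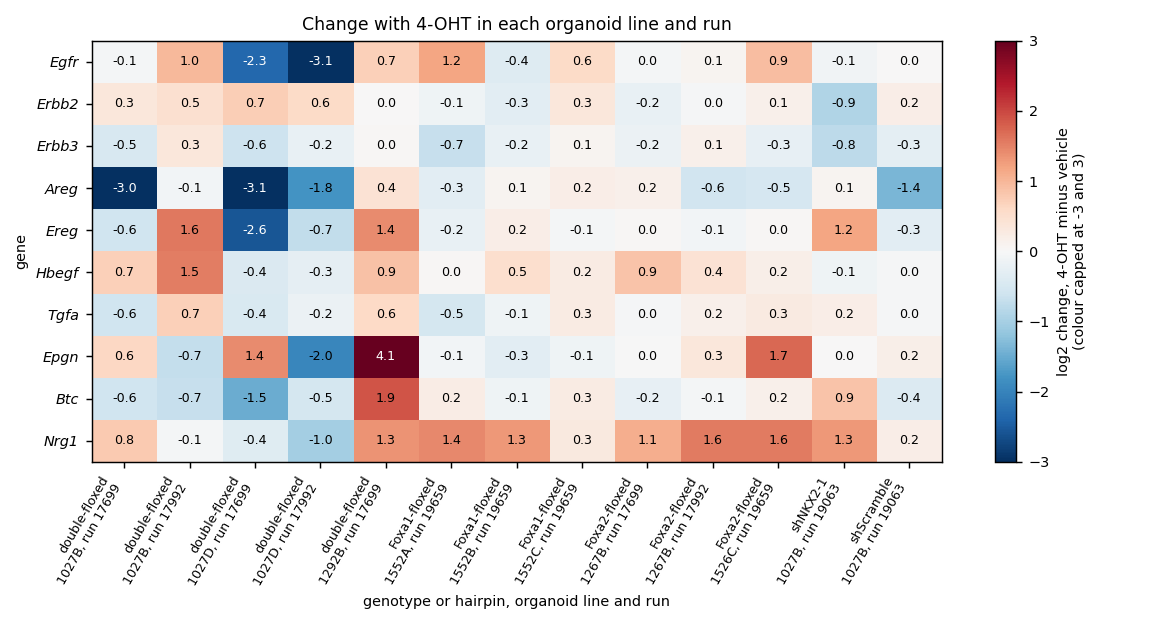
Log2 change (4-OHT minus vehicle, number and colour) of each gene (rows) in each pair of organoid line and run (columns), with genotype or hairpin under each column. Nrg1 is above 0 in 10 of 13 columns. In both columns of line 1027D all genes but Erbb2 and Epgn are below 0.

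Of the other ERBB receptor and ligand genes, Erbb4 (the other neuregulin receptor), Nrg2 and Nrg3 were at or under 0.119 CPM in every library, so ERBB4 transcript was near the limit of detection. Egf was between 0.452 and 5.34 CPM and was called in no comparison. Nrg4, an ERBB4 ligand, was 1.37 and 1.81 CPM in shNKX2-1 libraries with 4-OHT, against 0 counts in both with vehicle. It rose at least 15.5-fold, on 43 counts, against a limit of 3 counts over the vehicle group (edgeR adjusted p = 0.0182). Nrg4 passed the filter on low counts through the shNKX2-1 libraries with 4-OHT, the group then tested, so this p adds no support. With shScramble Nrg4 was 0.304 and 0.644 CPM with 4-OHT, against 0.06 and 0 CPM with vehicle, and it was not called.

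Among genes that release, restrain or carry the ERBB signal, few were called. In double-floxed organoids 0 of 9 sheddase and trafficking genes, 0 of 13 inhibitor and turnover genes, 1 of 19 adaptor and effector genes and 0 of 16 ERK response genes were called, against 3.9% of all genes tested. Their median log2 changes were 0.23, -0.04, 0.04 and 0.05, against 0.02 over all genes. The gene called was Vav2, an exchange factor recruited by EGFR, at 151, 95.6, 119.6, 151 and 98.9 CPM with 4-OHT, against 87.5, 57.7, 88.3, 99.1 and 57.4 CPM with vehicle. It was higher in each pair (1.59-fold, edgeR adjusted p = 0.0156). In Foxa1-floxed organoids none of these genes was called, against 0.0118% of all genes. In Foxa2-floxed organoids 1 of 9 sheddase and trafficking genes was called, Adam12, a metalloprotease that can cut Hbegf, at 12.01, 59.8, 21.1 and 19.7 CPM with 4-OHT, against 8.53, 25.3, 3.67 and 3.27 CPM with vehicle (3.46-fold higher, adjusted p = 0.0432). Also called was 1 of 16 ERK response genes, Etv5, an ETS factor, at 82.0, 51.9, 75.9 and 76.6 CPM with 4-OHT, against 119.7, 77.6, 133 and 127 CPM with vehicle (0.63 times, adjusted p = 0.0464). None of the 13 inhibitor and turnover genes or the 19 adaptor genes was called there, and the share over all genes was 3.43%. The list medians lay between -0.15 and 0.05 in the single-floxed genotypes.

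With shNKX2-1 the list medians were 0.46 for sheddase and trafficking genes, -0.21 for inhibitor and turnover genes, 0.32 for adaptor genes and -0.14 for ERK response genes, and with shScramble 0.10, -0.01, 0.23 and -0.05, against 0.02 over all genes with both hairpins. Egr1 was the ERK response gene called, 1 of 16, and it fell with 4-OHT under both hairpins. It was 18.2 and 20.1 CPM with 4-OHT, against 62.2 and 39.7 CPM with vehicle, in shNKX2-1 organoids (edgeR adjusted p = 0.0353). In shScramble organoids it was 31.0 and 23.0 CPM with 4-OHT, against 90.8 and 66.8 CPM with vehicle (adjusted p = 0.0305). With shNKX2-1, 1 of 19 adaptor genes was called, Gab2, a docking protein for PI3 kinase and SHP2, at 7.38 and 5.98 CPM with 4-OHT, against 2.27 and 1.38 CPM with vehicle (3.72-fold higher, adjusted p = 0.028). Between hairpins, 1 of 9 sheddase and trafficking genes was called, Adam8, at 22.1 and 21.7 CPM in shNKX2-1 libraries with 4-OHT, against 2.67 and 3.67 CPM in shScramble libraries with 4-OHT (6.96-fold higher, adjusted p = 0.0426). Beside these genes and Nrg4 no gene of the 5 lists was called in the hairpin comparisons, where the share over all genes was 6.35% with shNKX2-1, 4.33% with shScramble, 1.58% between hairpins with 4-OHT and 0.235% with vehicle. None was called in any of the 4 tests of a difference between changes.

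Erbb2 and Erbb3, which pair with each other, had a Pearson r of 0.60 over the 38 libraries, and 0.72 in single-floxed, 0.78 in hairpin and -0.24 in double-floxed libraries. The genes most like Erbb2 were Anxa11 (0.89), Rapgefl1 (0.88) and Fam3a (0.88), and those most like Erbb3 were Gys1 (0.88), Khnyn (0.86) and Trpm4 (0.86). For Tgfa they were Fgd6 (0.82), Lynx1 (0.82) and Dnm2 (0.79), and for Btc Sec23a (0.62), Abhd2 (0.61) and Dock4 (0.61). The likeness of Btc to any gene was thus the weakest of the 8 genes ranked. Egfr and Epgn were not ranked, since they did not pass the filter on low counts in every table.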

How the data were processed

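The authors deposited 3 tables of raw read counts, with Ensembl gene IDs in rows, a column for each library and no normalisation. The submitters' processing notes list featureCounts 1.5.1, STAR 2.7.6a, DESeq2 and the build GRCm38, with no word on their roles. The sources used here do not give the annotation, the strand setting or the handling of reads that map to several places. Libraries were made with a directional kit, per the labels' protocols. Pairs of libraries of 1 group differed beyond sampling noise in all 66 pairs checked, so none was counted as a repeat.

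From the counts, levels were computed as CPM with TMM factors. The 10 genes and all lists were chosen with earlier results of these data known. Tests used edgeR 4.0.16 in R 4.3.3 (filterByExpr, TMM, quasi-likelihood F test), fitted over all genes of a table, with Benjamini-Hochberg adjustment and a call at an adjusted p under 0.05. A 95% interval comes from the same fit. Fits of the floxed organoids blocked on organoid line. Foxa1-floxed and Foxa2-floxed libraries shared 1 fit. Vehicle and 4-OHT libraries of a line deviated together from their group means, with r of 0.155 to 0.772 (double-floxed), 0.470 to 0.868 (Foxa1-floxed) and 0.516 to 0.842 (Foxa2-floxed). Genotypes were compared in their changes on counts added up per line and treatment. The hairpin fit had 4 group means. Libraries of the same line share a tumour, and separate cultures are not stated for the hairpin groups, so p-values measure the spread between these libraries. In the lists, up to 4 called genes per direction with the smallest adjusted p were to be named. Likeness is the Pearson r of log2 CPM (prior count 2) centred on table means, over 13435 genes that passed the filter in all tables, and the 3 most alike genes are named. Limits set by 0 counts take 3 counts and cover counting error only. Motif matches were counted in RefSeq promoters. The code was tested on simulated data. The alternatives comprised DESeq2 1.42.0, RLE normalisation, no filter, a minimum log2 change of 1, other blocks, counts summed per line, no mitochondrial genes, each genotype alone, and leaving out libraries or lines. Leaving out both 1027B libraries of run 17992 was added after seeing the data. An allele that all lines share is not reported here.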

Additional observations from a re-analysis of the deposited data

Results flagged for a closer look

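Among 59 groups of 4 to 6 libraries checked, 8 held a library far from the others by a gap test. The test is set to flag about 1 in 20 groups of independent, normally spread values. The groups here hold repeat libraries of a line, so that share does not apply to them. In double-floxed organoids, line 1292B held 4 of the 8 values set apart, all above the rest. Its Egfr was 63.7 CPM with 4-OHT and 38.7 CPM with vehicle, and its Epgn 31.5 CPM with 4-OHT and 1.70 CPM with vehicle. Tgfa was high in line 1027D of run 17992 with vehicle, at 268 CPM. In Foxa2-floxed organoids the 3 values set apart were low. Ereg was 50.6 CPM in replicate 2 with 4-OHT and Nrg1 2.32 CPM in replicate 1 with 4-OHT, both line 1267B, and Tgfa was 42.2 CPM in replicate 3 with vehicle, line 1526C.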

How the results depend on the processing

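Of 1318 values of single genes under an alternative, 1294 stayed on their side of the threshold, 21 passed where the reported value had not, 3 no longer passed and 0 turned round after a call, while 128 changed sign with neither value called. The number of the 10 genes called moved in 19 of 146 counts, and the cause was not tested. Without a filter on low counts it was 1 in double-floxed (Areg), Foxa1-floxed (Nrg1), Foxa2-floxed (Nrg1) and shScramble organoids (Areg), and 2 with shNKX2-1 and in the vehicle comparison of hairpins (Ereg and Nrg1 in both). With DESeq2 it was 1 in Foxa2-floxed organoids (Nrg1), and 2 with shNKX2-1 and in the vehicle comparison of hairpins (Ereg and Nrg1). With a minimum log2 change of 1 it was 0 with shNKX2-1. Without line 1267B it was 1 in Foxa2-floxed organoids (Epgn), and without line 1027D 1 for double-floxed minus Foxa1-floxed (Ereg). Leaving out 1 library at a time, it ran from 0 to 4 with shNKX2-1, where 0 came without either vehicle library and 4 (Erbb2, Erbb3, Ereg and Nrg1) without 4-OHT replicate 1. It ran from 0 to 1 in Foxa2-floxed organoids (Nrg1, without 4-OHT replicate 1). It ran from 0 to 1 between hairpins with 4-OHT (Erbb2) and from 0 to 3 for the difference between hairpins (Erbb2, Ereg and Nrg1), both highest without shNKX2-1 4-OHT replicate 1. That left the library with the high mitochondrial share to stand for its group, assumed to vary like the others.

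With line and run as the replicate block the count was 1 in Foxa2-floxed organoids (Nrg1) and 0 in double-floxed organoids, and with no replicate block it was 0 in all 3 genotypes. For the hairpin groups, and only for these, no paired analysis was possible, because their replicate numbers come from accession order. Counts of called genes over all tested moved more than those of the members. They ran from 0 (without line 1027D) to 2391 (no filter), against 592 reported, in double-floxed organoids, from 0 to 1141, against 2, in Foxa1-floxed organoids and from 5 (no replicate block) to 1816, against 580, in Foxa2-floxed organoids. With shScramble they ran from 138 to 1372, against 627, and with shNKX2-1 from 258 to 6946, against 919. Between hairpins they ran from 0 to 461, against 34, with vehicle and from 0 to 5758, against 228, with 4-OHT. For differences the highest were 3552 between hairpins, 311 for double-floxed minus Foxa2-floxed, 138 for Foxa1-floxed minus Foxa2-floxed, all against 0, and 1187 against 248 for double-floxed minus Foxa1-floxed. Low counts limit Egfr in the hairpin libraries and Epgn nearly everywhere, and 2 or 3 lines a genotype limit the rest.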
